A study of Homo sapiens with 9 samples.

Results

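The 44 genes described here are 40 interferon-stimulated genes and 4 genes of HLA class I antigen presentation that were listed by name. They were measured by RNA-seq in A549, an established line of human lung cancer cells, 48 h after transfection with scrambled siRNA as the control or with either of 2 siRNAs against Cyclin K, named siCyclin K#1 and siCyclin K#2. Each group has 3 libraries of total RNA. Cyclin K is the regulatory partner of the transcriptional kinases CDK12 and CDK13. No interferon or virus is named for any group, but all cells, those of the control included, were transfected with siRNA, a double-stranded RNA. A resting level without transfection was not measured here. The labels give the medium as PRMI-1640 with FBS, while the methods give DMEM, and the methods speak of independent experiments for the data in general but do not tie the 3 libraries of a group to separate cultures. The p-values thus measure the spread between libraries, which may be technical. Of the 44 genes 42 had an entry among the 31080 reference gene entries, 38 passed the filter on low values and 4 did not (OAS2, MX1, RSAD2 and XAF1). CXCL10 and HLA-C were not analysed here.

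Interferons bind receptors at the cell surface, the kinases JAK1 and TYK2 then phosphorylate STAT proteins, and STAT2 with IRF9 enters the nucleus in a complex that binds the interferon-stimulated response element (ISRE) of its target genes. The products of these genes sense viral RNA, block its translation, degrade it or carry peptides to HLA class I molecules, and many of them are also transcribed at a low level in epithelial cells without added interferon. IRF1 can switch on part of the same genes, including those of class I presentation, without new interferon.

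Levels are given as FPKM, fragment counts scaled to gene length and library depth, which can be compared between genes. Fold changes are on the scale of log2(FPKM + 0.1), so that changes of weakly expressed genes are understated, and genes were called at an adjusted p under 0.05 by limma over all 21048 tested genes. CCNK, the target of both siRNAs, had 6.90, 7.05 and 7.10 FPKM with scrambled siRNA, 0.891, 0.816 and 0.720 in the siCyclin K#1 libraries and 0.809, 0.920 and 0.802 in those of siCyclin K#2. Depth was estimated at 31333749 to 33767961 reads per library. Of the markers of other cell types, PTPRC was at most 0.00685 FPKM, and the 3 endothelial genes summed to at most 0.0445. Of 5 leukocyte genes 3 had an entry and 2 were tested, and their sum was 30.9 to 31.7 in the scrambled, 31.6 to 34.3 in the siCyclin K#1 and 37.6 to 39.7 in the siCyclin K#2 libraries, nearly all of it CD68. Of 4 fibroblast genes 2 were tested, and their sum was 1.91 to 2.32, 13.9 to 14.9 and 3.24 to 3.44 in the same order, nearly all of it COL1A1, with COL3A1 and DCN near 0. Of 5 epithelial genes 3 were tested, and their sum was 132 to 152, 160 to 187 and 186 to 193, most of it KRT8 and KRT18, while EPCAM and KRT19 were near 0. The part of these shifts in the results below was not tested.

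The list did not move as 1 block. With both siRNAs as 1 group, 11 members fell, 4 rose and 23 did not pass the test. Those that fell were IRF1, IFIH1, DDX58, IFIT2, IFIT3, IFIT5, EIF2AK2, ISG15, BST2, PARP14 and TRIM22, and those that rose were IRF7, OAS1, ISG20 and HERC5. Over all tested genes 11.5% were called lower and 17.0% higher. The share of members called lower was thus above that of all tested genes and the share called higher below it, a difference that was not tested. The members were also more strongly expressed, with a median scrambled mean of 4.445 FPKM against 1.192 over all tested genes. The shares were not matched for level. Without scrambled replicate 1 or without scrambled replicate 2, 7 members fell. In the test of both siRNAs as 1 group, a difference between the siRNAs adds to the spread, so that a member they change unequally can miss the call. By limma SAMD9L was called lower with each siRNA (adjusted p = 0.016 and 6.8e-06) but not with both as 1 group (adjusted p = 0.065). The median log2 fold change of the 38 tested members was -0.05, against 0.06 over all tested genes. MX2 passed the filter through the scrambled libraries alone and had to be lower in the others. HERC5, 1 of the 4 that rose, passed the filter only with the siCyclin K libraries, where it was high. Its rise was thus in part selected by the filter.

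With siCyclin K#1 against scrambled, 14 members fell and 10 rose, beside 18.1% lower and 26.8% higher among all tested genes. Under quantile normalization, which moved the median of all genes for this siRNA from 0.10 to -0.02 on the log2 scale, 16 fell and 4 rose. Without siCyclin K#1 replicate 1, 11 fell and 6 rose. The shares of all tested genes called under these alternatives are not given here. With siCyclin K#2 against scrambled, 14 fell and 4 rose, beside 15.2% and 19.8%. Both comparisons use the same 3 scrambled libraries, and their values are therefore given side by side. The median log2 fold change of the members was -0.02 with siCyclin K#1 and -0.22 with siCyclin K#2, while that of all tested genes was 0.10 and 0.01. Most changes were small. At a fold change over 3 with an unadjusted p under 0.01, 1 member was higher (HERC5) and 1 lower (BST2) with both siRNAs together, where 2.29% of all tested genes were called in either direction. The same genes passed that limit with siCyclin K#1, where 4.67% of all tested genes did, and HERC5 alone with siCyclin K#2, where 1.94% did. HERC5 had passed the filter on low values only with the siCyclin K libraries, where it was high.

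In the direct comparison of the siRNAs, siCyclin K#1 gave higher values than siCyclin K#2 for 14 members and lower values for 6 (3 without siCyclin K#2 replicate 3), beside 17.1% and 12.3% among all tested genes. By limma 0 reached a fold change over 3 with an unadjusted p under 0.01, where 1.53% of all tested genes did. At an unadjusted p under 0.05 alone, 14 were higher and 7 lower, a count given without the share of all tested genes. For 14 members all 6 siCyclin K libraries lay below the 3 scrambled libraries, and for 5 all lay above, beside 13.7% and 18.9% of all tested genes. For the other 19 the groups overlapped. MX2, counted among the 14 below, passed the filter through the scrambled libraries alone. HERC5, counted among the 5 above, passed it only with the siCyclin K libraries. The place of these genes was thus set at least in part by the filter.

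**Figure D1:**
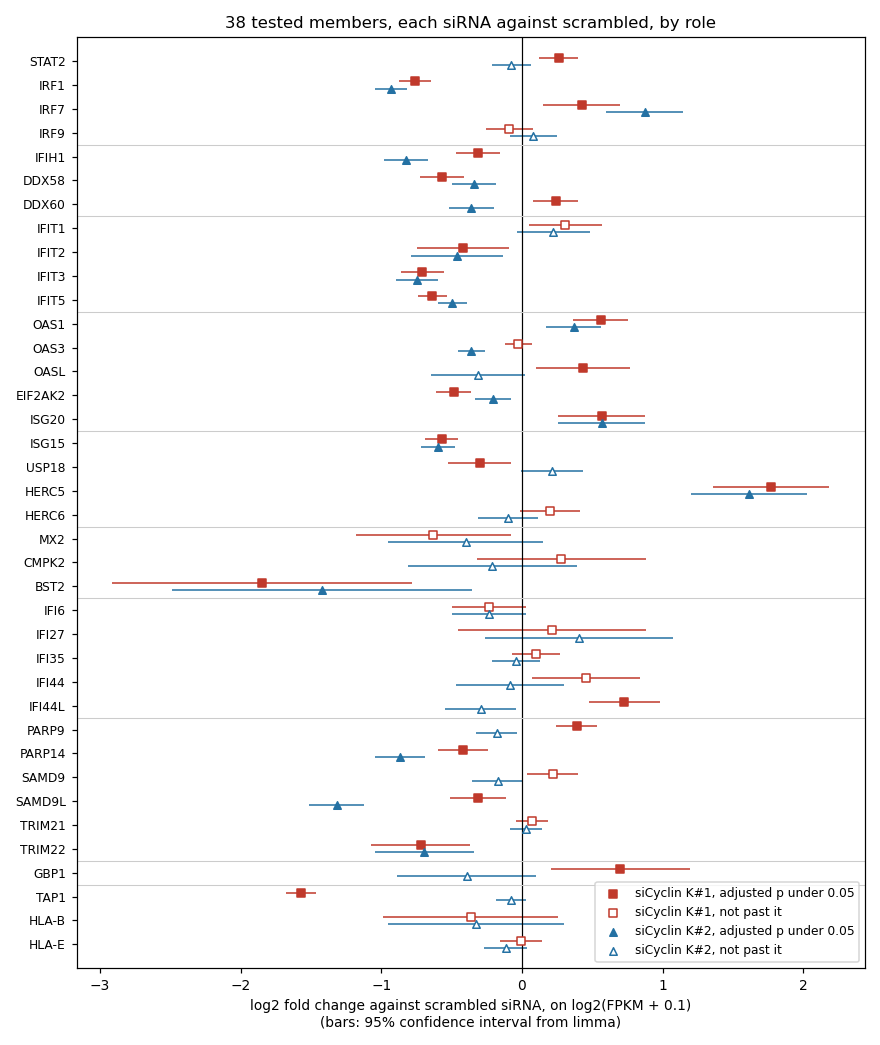
Log2 fold change of the 38 tested members against scrambled siRNA on log2(FPKM + 0.1), with siCyclin K#1 as squares and siCyclin K#2 as triangles, bars for the 95% confidence interval and grey lines between the roles. Filled symbols passed an adjusted p under 0.05, 24 with siCyclin K#1 and 18 with siCyclin K#2, and HERC5 and BST2 lie furthest from 0 on either side.

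Promoter sequence was looked up because so many of these genes share 1 response element. RefSeq (GRCh38.p14) gave a promoter, from 250 bases before to 50 bases after the start, for 34 of the 42 genes. IRF7, IFIT2, OAS2, OASL, USP18, MX2, TRIM22 and HLA-E had none. The core of the ISRE, searched as GAAANNGAA on both strands, was found in 22 of the 34, and in 8.11% of all 35116 promoters of that length. The core of the gamma-activated site, searched as TTCNNNGAA, which reads the same on either strand, was found in 8 of the 34 and in 7.66% of all promoters, and its matches can overlap those of the ISRE core. Members with the ISRE core moved both ways. It was found in 7 of the 9 genes that fell with both siRNAs together and have a promoter, and in 2 of the 3 that rose. With siCyclin K#1 alone it was found in 8 of 11 that fell and 5 of 8 that rose. HERC5, which passed the filter only with the siCyclin K libraries, is counted among those that rose. IRF1, DDX58, OAS1, STAT2, SAMD9L, HLA-B, IRF9, HERC6, CMPK2, IFI35, XAF1 and PARP9 had no match in this window. A match describes the letters in the window and not a bound site.

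Stretches upstream of the start are printed below for genes on which the results turn, 5′ to 3′ on the strand of the gene, with every base of an ISRE core match in capitals (GAAANNGAA, or TTCNNTTTC where it lies on the opposite strand). The first 4 belong to genes that fell with both siRNAs, and the next pair to genes that rose with both.
IFIT3: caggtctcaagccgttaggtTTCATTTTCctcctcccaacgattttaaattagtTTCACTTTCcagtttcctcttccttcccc
IFIT5: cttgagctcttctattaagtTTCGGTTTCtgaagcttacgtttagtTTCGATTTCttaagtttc
ISG15: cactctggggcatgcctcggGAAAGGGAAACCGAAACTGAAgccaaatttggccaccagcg
IFIH1: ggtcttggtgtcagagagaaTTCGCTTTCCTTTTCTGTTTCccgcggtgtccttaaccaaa
HERC5: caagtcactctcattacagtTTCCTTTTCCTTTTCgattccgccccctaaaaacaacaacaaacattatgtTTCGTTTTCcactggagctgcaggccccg
ISG20: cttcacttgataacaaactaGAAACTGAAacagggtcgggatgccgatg
IFI44L: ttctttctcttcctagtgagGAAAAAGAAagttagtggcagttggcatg
TAP1: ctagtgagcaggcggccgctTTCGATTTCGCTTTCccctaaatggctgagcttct
IFI44L and TAP1 are shown because they differed between the siRNAs. In GRCh38.p14 the stretch of IFIT3 is chr10:89327822-89327904 and that of IFIT5 chr10:89414504-89414567, both on the plus strand. That of ISG15 is chr1:1013364-1013424 and that of IFI44L chr1:78620264-78620312, both on the plus strand. That of HERC5 is chr4:88456975-88457074 and that of ISG20 chr15:88638927-88638975, again on the plus strand. Those of IFIH1, chr2:162318808-162318868, and TAP1, chr6:32853803-32853857, are on the minus strand. The start RefSeq gives for ISG15 lies 12359 bases from the start of its entry, and that of ISG20 2863 bases. For IFI27, which has a match but is not printed, the distance is 5900 bases.

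The transcription factors moved in different directions. IRF1, an activator of class I presentation and other interferon-stimulated genes (ENSG00000125347, minus strand of chromosome 5, 132481609 to 132490798 of GRCh38), had 9.88, 9.94 and 9.97 FPKM with scrambled siRNA, 5.62, 6.03 and 5.79 in the siCyclin K#1 libraries and 5.34, 4.93 and 5.24 in those of siCyclin K#2. All 6 siCyclin K libraries were far below the 3 scrambled ones, which lay close together. The mean was 58.5% of the scrambled mean with siCyclin K#1 and 52.1% with siCyclin K#2, and the log2 fold change was -0.85 ± 0.08 (SE, 3 against 6 libraries) with both together (adjusted p = 4.6e-05, exact permutation p = 0.0119, which is the smallest that 3 against 6 libraries allow). Less RNA per cell and fewer cells with the RNA cannot be told apart in these bulk libraries.

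IRF7, which drives the transcription of type I interferon genes, had 1.81, 2.34 and 2.30 FPKM with scrambled siRNA, 3.06, 2.63 and 3.05 in the siCyclin K#1 libraries and 3.75, 3.79 and 4.49 in those of siCyclin K#2. The 3 groups did not overlap, and siCyclin K#2 gave the highest values. The rise was 0.43 on the log2 scale with siCyclin K#1 (adjusted p = 0.018) and 0.87 with siCyclin K#2 (adjusted p = 5.3e-04), and siCyclin K#1 lay 0.45 below siCyclin K#2 on the same scale (adjusted p = 0.022, but 0.077 without siCyclin K#1 replicate 2 and 0.078 without siCyclin K#2 replicate 3). Without scrambled replicate 1 the change with siCyclin K#1 was 0.31 (adjusted p = 0.052) and that with both together 0.54 (adjusted p = 0.082), and neither passed the test. The call with siCyclin K#1 was also lost without its replicate 1 (adjusted p = 0.059) or its replicate 3 (adjusted p = 0.059), and under quantile normalization (0.25, adjusted p = 0.12). STAT2, a subunit of the ISRE-binding complex, had 7.07 ± 0.269 FPKM in the control (SD, n = 3), 8.50 ± 0.383 with siCyclin K#1 (adjusted p = 0.0072) and 6.72 ± 0.399 with siCyclin K#2 (adjusted p = 0.39). IRF9, the DNA-binding subunit of that complex, did not pass the test with either siRNA, with a 95% confidence interval of -0.21 to 0.20 on the log2 scale for both together.

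The cytosolic RNA sensors were lower, with 1 exception. IFIH1 encodes MDA5, a sensor of long double-stranded RNA (minus strand of chromosome 2, 162267079 to 162318703), and had 5.36, 5.16 and 5.68 FPKM with scrambled siRNA, 4.26, 4.56 and 4.17 in the siCyclin K#1 libraries and 2.84, 2.98 and 3.19 in those of siCyclin K#2. The groups did not overlap, with siCyclin K#1 in the middle. The fall was 0.31 on the log2 scale with siCyclin K#1 (log2 fold change -0.31, adjusted p = 0.0052) and larger with siCyclin K#2 (-0.83, adjusted p = 2.6e-05), and the difference between the siRNAs was 0.51 (adjusted p = 5.9e-04). With both siRNAs as 1 group the log2 fold change was -0.57 (adjusted p = 0.025), and leaving out scrambled replicate 1, 2 or 3 ended that call (adjusted p = 0.077, 0.065 and 0.094).

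DDX58 encodes RIG-I, the sensor of 5′-triphosphate RNA, and had 14.6, 14.7 and 15.7 FPKM with scrambled siRNA, 10.0, 9.55 and 10.6 in the siCyclin K#1 libraries and 10.7, 12.3 and 12.4 in those of siCyclin K#2. All 6 siCyclin K libraries were below the scrambled ones, and those of siCyclin K#1 were the lowest. The log2 fold change was -0.57 with siCyclin K#1 (adjusted p = 1.6e-04) and -0.34 with siCyclin K#2 (adjusted p = 0.0044). DDX60, a helicase linked to RIG-I signalling, was the only member called in opposite directions at the settings used throughout. IFI44L was called so under some alternatives given with its values. The DDX60 mean of 2.45 FPKM with scrambled siRNA compared with 2.91 with siCyclin K#1 (log2 fold change 0.24, adjusted p = 0.020) and 1.89 with siCyclin K#2 (-0.36, adjusted p = 0.0035). The rise with siCyclin K#1 was lost without scrambled replicate 2 or 3 or without siCyclin K#1 replicate 1 or 3 (0.21 to 0.24, adjusted p = 0.052 to 0.067).

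**Figure D2:**
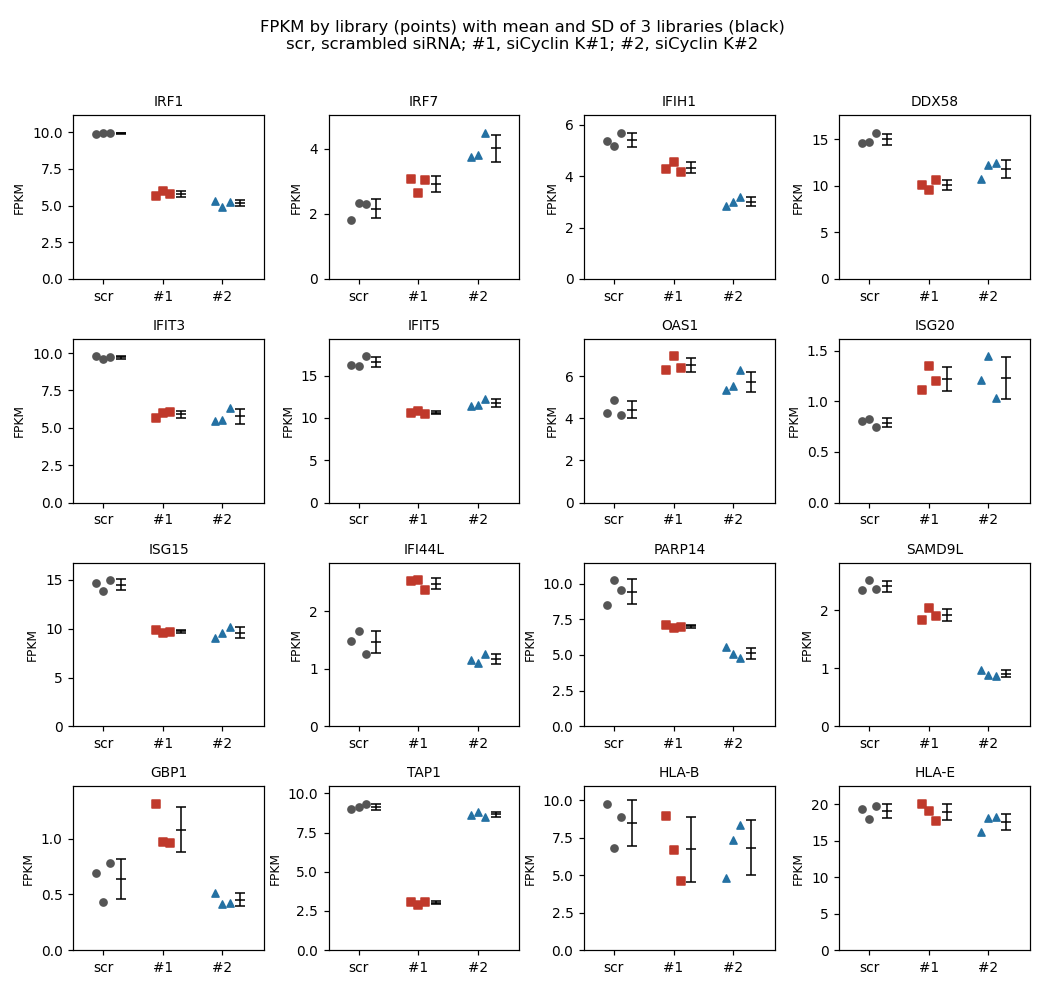
FPKM of 16 members in each of the 9 libraries, with axes that start at 0, 1 point per library, and the mean and SD of each group of 3 in black. IRF1, IFIT3, IFIT5 and ISG15 were lower with both siRNAs, TAP1 with siCyclin K#1 to 33.0% of its scrambled mean, and HLA-B was spread from 4.59 to 9.76 with no order of the groups.

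The IFIT genes lie next to each other on chromosome 10 and encode related proteins, some of which bind the 5′ end of foreign RNA. IFIT3 (plus strand, 89327894 to 89340971) had 9.77, 9.59 and 9.76 FPKM with scrambled siRNA, 5.66, 5.97 and 6.08 in the siCyclin K#1 libraries and 5.43, 5.51 and 6.36 in those of siCyclin K#2. IFIT5 (plus strand, 89414586 to 89421001) had 16.3, 16.2 and 17.2, then 10.5, 10.8 and 10.5, and 11.4, 11.5 and 12.3 in the same order. For both genes every siCyclin K library lay below every scrambled one. The log2 fold change of IFIT3 was -0.71 with siCyclin K#1 (adjusted p = 3.2e-05) and -0.74 with siCyclin K#2 (adjusted p = 4.0e-05), and the siRNAs differed by 0.04 with an adjusted p of 0.74. For IFIT5 it was -0.64 (adjusted p = 6.0e-06) and -0.50 (adjusted p = 4.7e-05).

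IFIT2 shares its entry with AL353751.1, and their reads cannot be told apart. The entry was called lower, from a mean of 2.33 FPKM to 1.72 with siCyclin K#1 (adjusted p = 0.040) and 1.66 with siCyclin K#2 (adjusted p = 0.035), but these calls rest on single libraries. Without scrambled replicate 2 the log2 fold changes were -0.33 (adjusted p = 0.13) and -0.37 (adjusted p = 0.12), and leaving out scrambled replicate 1, siCyclin K#1 replicate 1 or 2, or any siCyclin K#2 library also ended 1 or both calls. The call with both siRNAs together was lost without scrambled replicate 1 or 2 or siCyclin K#2 replicate 2 (adjusted p = 0.053 to 0.15). IFIT1, whose gene lies between IFIT3 and IFIT5, did not pass the test with either siRNA, although all 6 siCyclin K libraries were above the scrambled ones. Its mean was 1.44 FPKM with scrambled siRNA, 1.80 with siCyclin K#1 (adjusted p = 0.056) and 1.70 with siCyclin K#2 (adjusted p = 0.17).

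The enzymes that act on RNA also divided. OAS1 makes the short oligoadenylates that activate RNase L, and had 4.24, 4.86 and 4.13 FPKM with scrambled siRNA, 6.30, 6.93 and 6.38 in the siCyclin K#1 libraries and 5.36, 5.52 and 6.27 in those of siCyclin K#2. All 6 siCyclin K libraries were above the scrambled ones, by a log2 fold change of 0.56 with siCyclin K#1 (adjusted p = 6.4e-04) and 0.37 with siCyclin K#2 (adjusted p = 0.0091). Its neighbour OAS3, which makes the same messenger, had the highest scrambled mean of the 42 genes, 25.9 ± 0.564 FPKM (SD, n = 3). It was 25.5 ± 0.851 with siCyclin K#1 (adjusted p = 0.67) and 20.2 ± 0.823 with siCyclin K#2 (adjusted p = 2.0e-04), a difference between the siRNAs of 0.34 on the log2 scale (adjusted p = 4.3e-04).

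The third gene of that locus, OAS2, was under the filter, with 3 to 21 reads per library. OASL, a relative without the synthetase activity, was 0.449 FPKM with scrambled siRNA, 0.642 with siCyclin K#1 (adjusted p = 0.038) and 0.342 with siCyclin K#2 (adjusted p = 0.14), and the siRNAs differed by 0.75 on the log2 scale (adjusted p = 0.0047). Its rise with siCyclin K#1 was not called when any of the scrambled or siCyclin K#1 libraries was left out (0.37 to 0.49, adjusted p = 0.052 to 0.12). EIF2AK2, the kinase PKR that stops translation upon binding double-stranded RNA, fell from 14.7 FPKM to 10.5 with siCyclin K#1 (log2 fold change -0.48, adjusted p = 1.1e-04) and 12.7 with siCyclin K#2 (-0.20, adjusted p = 0.019). The latter call was lost without scrambled replicate 2 or 3 or siCyclin K#2 replicate 2 (adjusted p = 0.053 to 0.068), and that of both together without any 1 scrambled library (-0.35 to -0.34, adjusted p = 0.080 to 0.086). ISG20, an RNA exonuclease, had 0.806, 0.821 and 0.745 FPKM with scrambled siRNA, 1.11, 1.34 and 1.21 in the siCyclin K#1 libraries and 1.21, 1.44 and 1.04 in those of siCyclin K#2. Its 6 siCyclin K libraries were above the scrambled ones, with a log2 fold change of 0.57 for each siRNA (adjusted p = 0.0084 and 0.011), and the call with siCyclin K#1 was lost under quantile normalization (0.37, adjusted p = 0.052).

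The ISG15 system attaches a ubiquitin-like protein to other proteins and removes it. ISG15, the modifier itself (plus strand of chromosome 1, 1001138 to 1014541), had 14.7, 13.9 and 15.0 FPKM with scrambled siRNA, 9.90, 9.59 and 9.70 in the siCyclin K#1 libraries and 9.02, 9.56 and 10.2 in those of siCyclin K#2. The means with siCyclin K#1 and siCyclin K#2 were 67.0% and 66.0% of the scrambled mean, and no library overlapped with the control. Log2 fold changes were -0.57 (adjusted p = 3.0e-05) and -0.60 (adjusted p = 4.0e-05). USP18, the protease that removes ISG15, moved from 4.48 ± 0.380 FPKM to 3.62 ± 0.396 with siCyclin K#1 (adjusted p = 0.033) and 5.21 ± 0.330 with siCyclin K#2 (adjusted p = 0.13), and the siRNAs differed by -0.52 on the log2 scale (adjusted p = 0.0040). The call with siCyclin K#1 was lost without scrambled replicate 1 or 2 or siCyclin K#1 replicate 1 or 3 (-0.32 to -0.22, adjusted p = 0.056 to 0.11).

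HERC5, the ligase that couples ISG15 to its targets, rose while ISG15 fell, and was chosen for values by library after they were seen (ENSG00000138646, plus strand of chromosome 4, 88457117 to 88506163). It had 0.162, 0.0988 and 0.129 FPKM with scrambled siRNA, 0.713, 0.623 and 0.707 in the siCyclin K#1 libraries and 0.529, 0.556 and 0.731 in those of siCyclin K#2. These values stood on 15 to 26 reads in the scrambled libraries and 81 to 111 in the others, so that the gene was low in every group. The scrambled libraries lay well apart from the others. Scrambled replicate 2, at 0.0988 FPKM, was under the filter limit of 0.1 FPKM, so that HERC5 passed the filter only with the siCyclin K libraries. The mean was 5.24-fold the scrambled mean with siCyclin K#1 and 4.66-fold with siCyclin K#2, or a log2 fold change of 1.77 ± 0.18 (SE, adjusted p = 5.6e-05) and 1.61 ± 0.18 (adjusted p = 1.6e-04). Its neighbour HERC6 passed the test with neither siRNA, with means of 2.75, 3.16 and 2.55 FPKM.

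Of the genes that act on virus entry and release, most were close to silent. MX1, a GTPase that blocks incoming viruses, had 0 to 19 reads per library, and RSAD2, the antiviral enzyme viperin, had 0 to 8. MX2, a GTPase of the same family, had 12 to 61 reads. BST2 encodes tetherin, which holds budding virus at the membrane, and its values by library were likewise chosen after they were seen. It had 0.767, 0.898 and 0.441 FPKM with scrambled siRNA, 0.248, 0 and 0.190 in the siCyclin K#1 libraries and 0.139, 0.242 and 0.196 in those of siCyclin K#2, which is 16 to 32 reads against 0 to 9. The groups did not overlap, but at so few reads the size of the fall is uncertain, with a log2 fold change of -1.63 ± 0.41 for both siRNAs together (adjusted p = 0.013). The call was lost without scrambled replicate 1 (-1.55, adjusted p = 0.059) or without scrambled replicate 2 (-1.45, adjusted p = 0.068). With siCyclin K#2 alone (-1.42, adjusted p = 0.044) it passed in 7 of 17 alternatives. CMPK2, a nucleotide kinase whose gene overlaps RSAD2 on the other strand, did not pass the test, with means of 0.310, 0.404 and 0.257 FPKM.

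**Figure D3:**
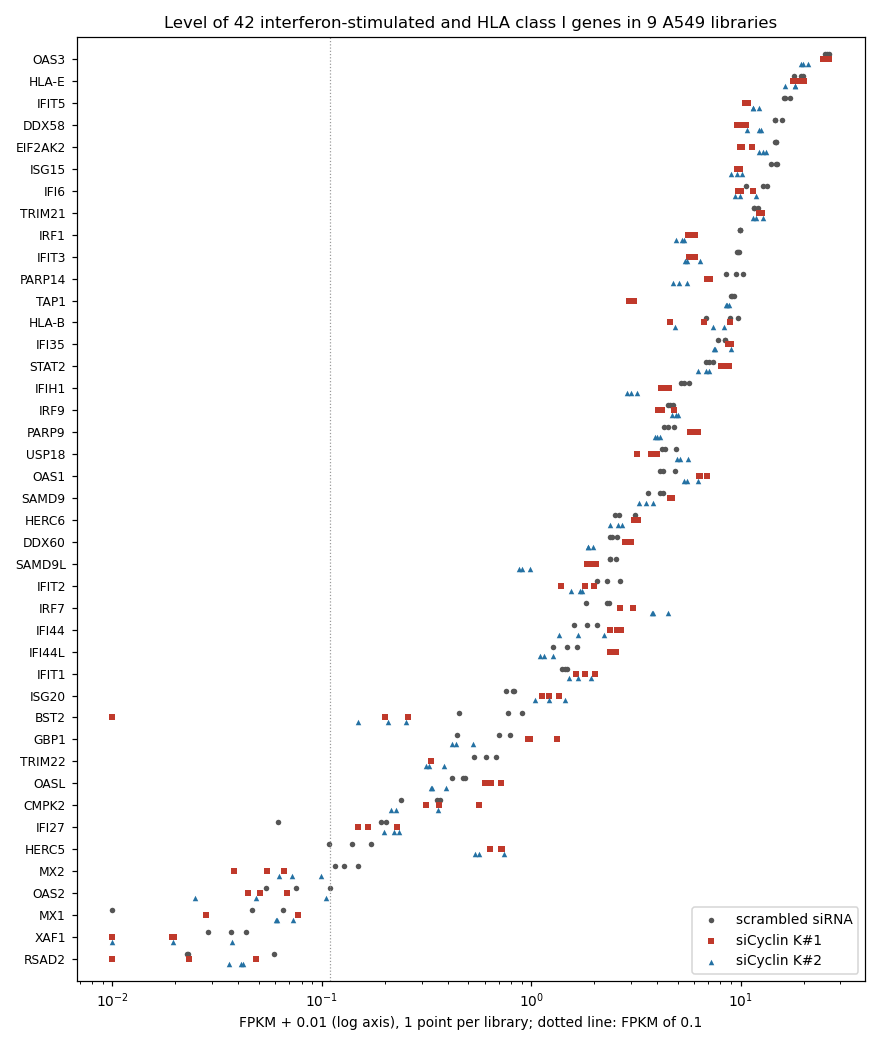
FPKM + 0.01 on a log axis for the 42 members with an entry, ordered by their scrambled mean, with 1 point per library and the filter at 0.1 FPKM as a dotted line. The highest scrambled mean, that of OAS3, was 25.9 FPKM, and MX1, XAF1 and RSAD2 lie at the bottom near the limit of the depth.

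Of the IFI genes IFI44L alone was called against scrambled siRNA, while IFI6, IFI27, IFI35 and IFI44 did not pass the test with either siRNA. IFI44L, a regulator of the interferon response and neighbour of IFI44 on chromosome 1 (plus strand, 78619922 to 78646145), had 1.48, 1.65 and 1.26 FPKM with scrambled siRNA, 2.52, 2.53 and 2.36 in the siCyclin K#1 libraries and 1.15, 1.10 and 1.26 in those of siCyclin K#2. The siCyclin K#1 libraries were above all the others. The log2 fold change was 0.73 with siCyclin K#1 (adjusted p = 6.5e-04) and -0.29 with siCyclin K#2 (adjusted p = 0.072), and the siRNAs differed by 1.02 ± 0.11 (SE, adjusted p = 1.9e-04). With siCyclin K#2 it was called lower at a mean of at least 1 FPKM, under either other normalization and without scrambled replicate 3 (-0.39 to -0.29, adjusted p = 0.025 to 0.044). IFI44 differed between the siRNAs in the same direction, by 0.54 (adjusted p = 0.041), with means of 1.83, 2.53 and 1.74 FPKM, a call that was lost without scrambled replicate 3, any siCyclin K#1 library or siCyclin K#2 replicate 1 or 2 (0.38 to 0.59, adjusted p = 0.060 to 0.11). XAF1, an inhibitor of the caspase inhibitor XIAP, had 0 to 7 reads.

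PARP14 and PARP9 are ADP-ribosyltransferase family members encoded in the same region of chromosome 3, with PARP9 on the minus strand at 122527924 to 122564577. PARP14 (plus strand, 122680618 to 122730840) had 8.53, 10.2 and 9.53 FPKM with scrambled siRNA, 7.13, 6.90 and 6.98 in the siCyclin K#1 libraries and 5.55, 5.07 and 4.77 in those of siCyclin K#2. The groups did not overlap and siCyclin K#2 was lowest, with a log2 fold change of -0.42 (adjusted p = 0.0021) for siCyclin K#1 and -0.86 (adjusted p = 4.4e-05) for siCyclin K#2. PARP9 rose with siCyclin K#1 from 4.54 to 5.97 FPKM (log2 fold change 0.39, adjusted p = 0.0010) and was 3.99 with siCyclin K#2 (adjusted p = 0.057), a difference of 0.57 between the siRNAs (adjusted p = 2.2e-04).

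SAMD9L and SAMD9 are neighbouring genes on chromosome 7 whose products restrict viral growth and cell proliferation. SAMD9L (minus strand, 93130055 to 93148369) had 2.36, 2.52 and 2.37 FPKM with scrambled siRNA, 1.84, 2.04 and 1.90 in the siCyclin K#1 libraries and 0.977, 0.895 and 0.862 in those of siCyclin K#2. The 3 groups were apart, and siCyclin K#2 left 37.7% of the scrambled mean while siCyclin K#1 left 79.8%. With siCyclin K#2 the log2 fold change was -1.32 ± 0.09 (SE, adjusted p = 6.8e-06), against -0.31 ± 0.09 with siCyclin K#1 (adjusted p = 0.016), and 1.00 ± 0.09 between them (adjusted p = 4.9e-05). The call with siCyclin K#1 was lost without scrambled replicate 2 (-0.28, adjusted p = 0.057) or without siCyclin K#1 replicate 1 (-0.28, adjusted p = 0.056). SAMD9 did not pass the test with either siRNA (adjusted p = 0.054 and 0.13), yet the siRNAs differed by 0.39 (adjusted p = 0.0060). The difference between the siRNAs had the same sign for both neighbours, and of the pair SAMD9L was called against the control.

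Of the TRIM ubiquitin ligases, TRIM21, which binds antibody in the cytosol, had means of 11.8, 12.4 and 12.03 FPKM and a 95% confidence interval for both siRNAs together of -0.08 to 0.18 on the log2 scale. TRIM22, which shares its entry with OR56B1, fell from 0.597 FPKM to 0.322 with siCyclin K#1 (adjusted p = 0.0047) and 0.330 with siCyclin K#2 (adjusted p = 0.0075). GBP1, a GTPase that attacks intracellular microbes, had 0.694, 0.434 and 0.784 FPKM with scrambled siRNA, 1.31, 0.972 and 0.960 in the siCyclin K#1 libraries and 0.517, 0.410 and 0.427 in those of siCyclin K#2. The siCyclin K#1 libraries were above the rest, while those of siCyclin K#2 overlapped with the scrambled ones. The siRNAs differed by 1.09 ± 0.22 (SE, adjusted p = 0.0052). The rise of 0.70 with siCyclin K#1 (adjusted p = 0.027) was not called without scrambled replicate 2 (0.48, adjusted p = 0.072), without siCyclin K#1 replicate 1 (0.56, adjusted p = 0.096) or under quantile normalization (0.53, adjusted p = 0.086). With siCyclin K#2 it was called lower without scrambled replicate 2 (-0.61, adjusted p = 0.040).

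Of the class I presentation genes, TAP1 differed most between the siRNAs. TAP1 forms with TAP2 the transporter that moves peptides into the endoplasmic reticulum (ENSG00000168394, minus strand of chromosome 6, 32845209 to 32853978). It had 8.99, 9.11 and 9.32 FPKM with scrambled siRNA, 3.09, 2.91 and 3.05 in the siCyclin K#1 libraries and 8.63, 8.83 and 8.51 in those of siCyclin K#2. The siCyclin K#1 libraries were at 33.0% of the scrambled mean, while those of siCyclin K#2 were just below the scrambled ones at 94.7%. The log2 fold change was -1.57 ± 0.05 (SE) with siCyclin K#1 (adjusted p = 5.2e-08) and -0.08 with siCyclin K#2 (adjusted p = 0.24, 95% confidence interval -0.18 to 0.03, and -0.16 with an adjusted p of 0.031 under quantile normalization), and the siRNAs differed by -1.49 (adjusted p = 2.7e-07). CCNK, by comparison, differed between the siRNAs by -0.06 (adjusted p = 0.73).

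HLA-B, which shows peptides to cytotoxic T cells, had 9.76, 6.80 and 8.91 FPKM with scrambled siRNA, 8.93, 6.70 and 4.59 in the siCyclin K#1 libraries and 4.83, 7.37 and 8.36 in those of siCyclin K#2. The groups overlapped and their spread was wide, so that a 95% confidence interval from -0.85 to 0.16 on the log2 scale was left for both siRNAs together. Class I genes have near-identical stretches, and the entry of HLA-B (chromosome 6, 31269491 to 31357188) spans a StringTie locus that overlaps the neighbouring class I gene, so its reads are uncertain. HLA-E, the ligand of the NKG2A receptor of natural killer cells, had 19.3, 17.9 and 19.8 FPKM, then 20.01, 19.0 and 17.7, and 16.2, 18.1 and 18.2. These groups overlapped too, and the interval for both siRNAs together was narrow, -0.23 to 0.10.

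The other genes of class I presentation moved mostly down. Of 19 tested entries 10 fell and 2 rose with both siRNAs together, beside 11.5% lower and 17.0% higher among all tested genes, and the median log2 fold change was -0.51. The 3 largest falls were of PSMB10 and PSMB9, catalytic subunits of the immunoproteasome, and of B2M, the light chain of every class I molecule. PSMB10, on an entry shared with CTRL, fell from 4.68 ± 0.310 FPKM (SD, n = 3) to 1.86 ± 0.0797 in the siCyclin K#1 libraries and 1.76 ± 0.0943 in those of siCyclin K#2 (adjusted p = 7.8e-06 for both together). PSMB9, on an entry shared with PSMB8-AS1 that spans TAP1, fell from 7.62 to 4.24 and 3.52 FPKM (adjusted p = 1.1e-04). B2M had 68.0, 62.7 and 67.2 FPKM with scrambled siRNA, 16.1, 40.3 and 31.5 in the siCyclin K#1 libraries and 39.0, 41.7 and 42.4 in those of siCyclin K#2 (adjusted p = 0.025). Its call was lost without any 1 scrambled library (-1.01 to -0.95, adjusted p = 0.067 to 0.082).

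The pair that rose, CALR and PDIA3, encode the chaperones calreticulin and ERp57, which load class I molecules but also serve other glycoproteins. CALR rose from 156.5 to 333 and 300.3 FPKM (adjusted p = 5.3e-06) and PDIA3 from 104 to 130.4 and 140.1 (adjusted p = 0.0012).

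**Figure D4:**
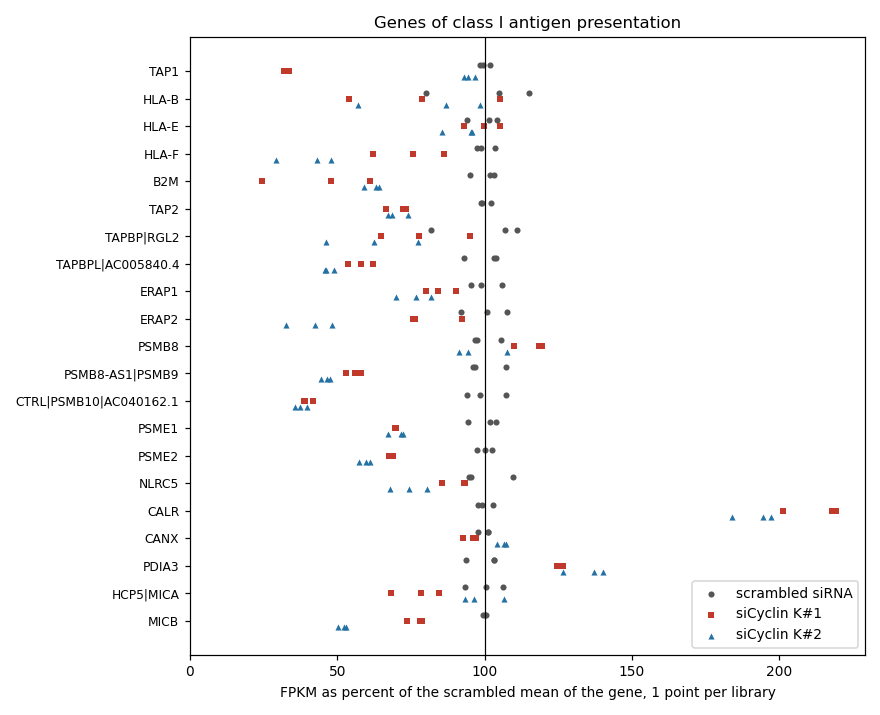
FPKM of the 3 tested class I members and 18 other entries of class I presentation in each library, as a percentage of the scrambled mean of the same gene, with 1 point per library. TAP1 stands at 33.0% with siCyclin K#1 and 94.7% with siCyclin K#2, the shared entry of PSMB10 is low with both, and CALR and PDIA3 lie to the right of 100.

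The interferon genes themselves were at or near 0. Of 21 interferon genes 7 had an entry and 2 passed the filter, IFNA1 and IFNK. IFNK, which is made by keratinocytes, was called lower at 0.108 to 0.138 FPKM with scrambled siRNA and at most 0.0532 with the siRNAs against Cyclin K. It passed the filter through the scrambled libraries alone, at 4 to 5 reads, and had to be lower in the others. Its call with both siRNAs together was lost without scrambled replicate 1 or 2 (adjusted p = 0.052 and 0.056), and that with siCyclin K#1 also without siCyclin K#1 replicate 1 or 2 (adjusted p = 0.067 and 0.066). Of 10 tested entries for receptors, kinases and STAT proteins 2 rose with both siRNAs together, against 17.0% of all tested genes. With siCyclin K#1 alone 7 rose, beside 26.8% of all tested genes, and with siCyclin K#2 alone 3, beside 19.8%. Falls in this list are not reported here. JAK1 rose from 46.02 to 96.97 FPKM with siCyclin K#1 (adjusted p = 3.0e-07) and 55.45 with siCyclin K#2 (adjusted p = 0.0017). With both together JAK1 was not called (adjusted p = 0.053). STAT3, the factor of the IL6 family, rose from 21.9 to 43.8 and 36.1 FPKM (adjusted p = 1.1e-04), and IFNGR1, a chain of the interferon gamma receptor, from 8.04 to 11.7 and 9.77 (adjusted p = 0.014, but 0.054 and 0.051 without scrambled replicate 1 or 3).

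Of 11 tested genes that lead to interferon induction 3 fell and 1 rose with both siRNAs together, where 11.5% of all tested genes were lower and 17.0% higher. TMEM173, which encodes STING, had a log2 fold change of -0.87 (adjusted p = 0.0011), MAVS, the adaptor of both RNA sensors above, of -0.46 (adjusted p = 7.5e-04), and the kinase gene TBK1 of -0.22 (adjusted p = 0.011). IKBKE, a kinase related to TBK1, rose by 0.38 (adjusted p = 0.031). Of 8 negative regulators 2 fell and 0 rose at an adjusted p under 0.05 by limma (2 and 1 at an unadjusted p under 0.05), beside the same 11.5% and 17.0%. They were TRIM25, a ligase that also activates RIG-I, with a log2 fold change of -0.69 (adjusted p = 0.040), and SOCS1, an inhibitor of JAK kinases that was under 1 FPKM. SOCS1 had a log2 fold change of -1.87 (adjusted p = 0.0032), at 48 to 55 reads in the scrambled libraries and 4 to 22 in the others. The calls of IKBKE, without scrambled replicate 2 or 3, siCyclin K#1 replicate 2 or 3 or siCyclin K#2 replicate 1 or 2, of TRIM25, without any 1 scrambled or siCyclin K#1 library, and of TBK1, without scrambled replicate 1, were lost (adjusted p = 0.052 to 0.13).

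Of 31 tested entries for other interferon-stimulated genes, 8 fell and 4 rose with both siRNAs together, with a median log2 fold change of -0.11. The shares of all tested genes were 11.5% lower and 17.0% higher, and the difference was not tested. The largest falls at a mean of at least 1 FPKM were of GBP3 (-0.85, adjusted p = 9.1e-04), PARP12 (-0.72, adjusted p = 0.0044) and SP100, a nuclear body protein (-0.56, adjusted p = 0.046), of which GBP3 and SP100 share their entries with other annotations. The largest rises were of UBE2L6, the conjugating enzyme for ISG15 (0.45, adjusted p = 7.8e-04), the joint entry of IFITM1 and IFITM2, which block virus entry (0.37, adjusted p = 0.0019), and SP110 (0.33, adjusted p = 0.015). The call of SP100 was lost without any 1 scrambled or siCyclin K#1 library (-0.60 to -0.49, adjusted p = 0.073 to 0.14) and that of SP110 without scrambled replicate 1 or 2 (adjusted p = 0.063 and 0.068).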

How the data were processed

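The authors sequenced total RNA of A549 cells, and the deposited values are FPKM per feature and library, which the authors made with StringTie 1.3.3b. The aligner and the strand setting are not given in the sources used here. Each of the 9 files lists 56252 features with GRCh38 coordinates, and 41 of the 42 members with an entry had the coordinates of GENCODE 29.

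The labels gave the groups and replicate numbers. Rows of 1 reference gene were summed, and an entry was kept if 3 or more libraries reached 0.1 FPKM. Tests were made on log2(FPKM + 0.1) by limma 3.58.1 under R 4.3.3, using lmFit, eBayes with trend and Benjamini-Hochberg adjustment over 21048 entries. Both siRNAs were tested as 1 group against scrambled siRNA, and each siRNA in a fit of 3 groups with a shared spread. Exact two-sided permutation tests were done with numpy 2.4.6 over every split of the 9 libraries, and 3 against 3 libraries cannot go below 0.1. Confidence intervals used scipy 1.17.1. The limma scripts were tested on simulated data. Depth was estimated from FPKM values that were whole multiples of 1 read of their gene. Reads were then calculated from FPKM, gene length and depth and rounded, for the 38 members whose entry was a single Ensembl gene. A count of 3 reads was taken as the floor. Reads cover counting error only.

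The members and all gene lists were chosen with earlier results of these data known. Values by library were given for members called with either siRNA at a log2 fold change over 0.5 and a mean of at least 1 FPKM in 1 group, and for the class I genes. Of the other lists, 2 genes are not reported here. These lists were given by counts, with at most 3 called genes named in each direction at a mean of at least 1 FPKM. Promoters were matched by the Entrez identifiers in the files. The alternatives were pseudocounts of 0.5 and 1, no filter or a mean of at least 1 FPKM, quantile normalization or median-ratio rescaling, limma-voom on recovered reads, a replicate block, eBayes without trend, leaving out each library, and a fold change over 3 with an unadjusted p under 0.01.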

Additional observations from a re-analysis of the deposited data

Results flagged for a closer look

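By the direct limma test between the siRNAs (adjusted p under 0.05), their effects differed for 20 of the 38 tested members. Each difference is given on the log2 scale as siCyclin K#1 minus siCyclin K#2. Positive differences were called for 36.8% of the members and 17.1% of all tested genes, negative ones for 15.8% and 12.3%. Such differences were thus frequent outside the list too, and the gap between these shares was not tested. The difference is given here for each of the 20 members. Among the transcription factors and RNA sensors it was 0.34 for STAT2, 0.17 for IRF1, -0.45 for IRF7, 0.51 for IFIH1, -0.23 for DDX58 and 0.60 for DDX60. In the effector families it was -0.14 for IFIT5, 0.34 for OAS3, 0.75 for OASL and -0.28 for EIF2AK2. Of the ISG15 system USP18 had -0.52 and HERC6 0.30. IFI44 had 0.54 and IFI44L 1.02. PARP9 had 0.57, PARP14 0.44, SAMD9 0.39 and SAMD9L 1.00. GBP1 had 1.09, and TAP1 had -1.49. IRF1 kept the call in 7, DDX58 in 9 and IFIT5 in 5 of 18 alternatives, IRF7 lost it without siCyclin K#1 replicate 2 or siCyclin K#2 replicate 3 (-0.38 and -0.36, adjusted p = 0.077 and 0.078), and HERC6 lost it without scrambled replicate 2 and without any 1 siCyclin K library (0.25 to 0.34, adjusted p = 0.052 to 0.13). IFI44 lost it without scrambled replicate 3, any siCyclin K#1 library or siCyclin K#2 replicate 1 or 2 (adjusted p = 0.060 to 0.11). Off-target effects of either siRNA were not tested.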

How the results depend on the processing

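For 18 members given by library, 1192 of 1280 values under the alternatives kept their direction and their side of the threshold, 63 lost the call, 10 gained it and 15 changed sign. Among the gained calls, SAMD9L was lower with both siRNAs together in 4 alternatives (-0.93 to -0.81, adjusted p = 0.023 to 0.050). None of the 15 was of a called difference. With calls at an unadjusted p under 0.01 and over 3-fold, the higher and lower members were 1 and 1 with both siRNAs together, 1 and 1 with siCyclin K#1, 1 and 0 with siCyclin K#2, and 0 and 0 between the siRNAs, a limit that is stricter by its construction. Quantile normalization called 4 members higher with siCyclin K#1 in place of 10, and 16 lower in place of 14; it put HERC5 at -0.037 between the siRNAs. The cause was not tested.

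When each library was left out in turn, 3 to 4 members were higher and 7 to 12 lower with both siRNAs together, 6 to 13 and 11 to 14 with siCyclin K#1, 4 and 11 to 14 with siCyclin K#2, and 11 to 13 and 3 to 6 between the siRNAs. The count of 7 came without scrambled replicate 1 or 2, the 6 without siCyclin K#1 replicate 1 and the 3 without siCyclin K#2 replicate 3. Differences near 0 changed sign, each over its range of -0.004 to 0.108 for IFIT3, -0.109 to 0.112 for ISG20, -0.018 to 0.067 for ISG15, -0.268 to 0.209 for HLA-B and -0.765 to 0.135 for BST2 between the siRNAs. The same held for GBP1 with both siRNAs together (-0.063 to 0.301) and HLA-E with siCyclin K#1 (-0.051 to 0.037).

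The libraries were not treated as paired by replicate number. Same-numbered libraries had a mean correlation of deviations of -0.0059 over 11243 genes (-0.071 to 0.038), against 0.0029 for differently numbered ones (-0.039 to 0.057). These values show no shared deviation but cannot tell whether same-numbered libraries were handled together. With a replicate block 4 members were higher and 8 lower with both siRNAs together, 9 and 12 with siCyclin K#1, 4 and 12 with siCyclin K#2, and 12 and 5 between the siRNAs. For counts with a replicate block, under quantile normalization or with a library left out, the share of all tested genes is not given here. Whether all tested genes moved likewise cannot be read from these counts. Depth limits BST2, IFI27, MX1, MX2, RSAD2, XAF1 and OAS2, which had at most 61 reads in a library, and limma-voom could be fitted for 34 members.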
